A study of Mus musculus with 21 samples.

Results

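Knockout of CEBPG was compared with knockout of CHOP in sorted cells labelled as retinal ganglion cells, which send their axons through the optic nerve to the brain. The members were chosen by label: 4 libraries titled as CEBPG knockouts (replicates 6, 8, 9 and 10) and 5 titled as CHOP knockouts (replicates 1 to 5), 9 of the 21 samples of the series. All 9 came from C57BL/6 mice taken 3 days after the optic nerve had been crushed, and the submitters' sample sheet gives them as female, 6 to 7 weeks old and batch 3. Each group had received guide RNAs against its gene, CEBPG (gene Cebpg, protein C/EBP gamma) or CHOP (gene Ddit3). The guide sequences, the source of Cas9, the gate of the sort and whether any library pools animals were not given in the sources used here. No control library enters the comparison, so every value below sets 1 knockout against the other and says nothing of the uninjured or unedited state. Nothing in the labels says that the libraries of a group came from separate animals, so the p-values speak only of library-to-library variation, part or all of which could be technical.

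C/EBP gamma and CHOP are both basic leucine zipper proteins of the C/EBP family. C/EBP gamma pairs with ATF4, the central factor of the integrated stress response, at composite C/EBP-ATF elements in genes of amino acid supply. CHOP is itself induced by ATF4, forms dimers with other C/EBP proteins and is known for its part in cell death after stress, including that of ganglion cells after optic nerve injury.

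Counted reads ran from 9000250 to 29810987 in the CEBPG knockouts and from 14272784 to 31543917 in the CHOP knockouts. Duplicate pairs made up 50.3% to 54.4% and 49.2% to 53.6%. Genes with at least 1 read numbered 15155 to 15740 in the CEBPG knockouts and 15764 to 16193 in the CHOP knockouts. These ranges did not overlap, and CHOP replicate 1, with the fewest reads of its group, had the most genes. What part this difference in genes detected takes in the calls below was not tested. Of the 17164 genes in the table, 15406 passed the filter on low counts. The first principal component, with 33.5% of the variance, separated the groups. On the second, with 17.68%, CEBPG replicate 6 (84.73) and CEBPG replicate 8 (-104.3) lay far from each other and from the other 7 libraries, and CEBPG replicate 6 also had the fewest reads. On the third, with 13.71%, CEBPG replicates 9 (-62.44) and 10 (-68.05) lay far from CEBPG replicates 6 (64.17) and 8 (36.21). The CHOP libraries ran from -1.11 to 12.88 there, so the CEBPG group was the more scattered. For many of the gene lists, though not all, the counts of calls are therefore also given without CEBPG replicates 6 and 8. This leaves 2 CEBPG libraries, replicates 9 and 10, which lay close together on these components. The ganglion cell label was checked against identity markers. Rbpms, Sncg, Slc17a6 and Pou4f1 were detected in all 9 libraries, whereas the ganglion cell factor Pou4f2 had 0 reads in the CEBPG knockouts and 63 in the CHOP knockouts, and did not pass the filter. Markers of amacrine cells, photoreceptors, glia and blood-borne cells were detected in every library as well. In the CEBPG knockouts 5 defining ganglion cell markers took 0.0057% to 0.00912% of counted reads and 5 defining amacrine markers 0.167% to 0.218%. In the CHOP knockouts these shares were 0.0052% to 0.00725% and 0.387% to 0.436%. They are not scaled for gene length. Detection of the markers does not show that ganglion cells made up most of a library. In such bulk libraries fewer cells of a type and less RNA per cell cannot be told apart.

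With edgeR, 3429 of 15406 genes (22.3%) were called at an adjusted p below 0.05. Of these, 1978 (12.8% of the genes tested) were higher in the CEBPG knockouts and 1451 (9.42%) were lower. The counts of calls in each gene list below are to be set beside these shares. Without CEBPG replicates 6 and 8 there were 3082 calls. With the 5 ATF3 knockouts of the same batch also in the fit there were 4755, of which 2345 were lower. With upper quartile scaling the balance was 1743 higher and 1761 lower, and 3194 of the 3429 calls kept their direction. The values of the groups did not overlap for 3508 genes (22.8%). Fold changes below are log2 values of CEBPG over CHOP, a positive value meaning higher in the CEBPG knockouts. Their median over all genes tested was 0.015. Levels are given as CPM (counts scaled by library size), in the order of replicates 6, 8, 9 and 10 for CEBPG and 1 to 5 for CHOP. The plot of all genes tested shows these values against the level of each gene.

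**Figure D1:**
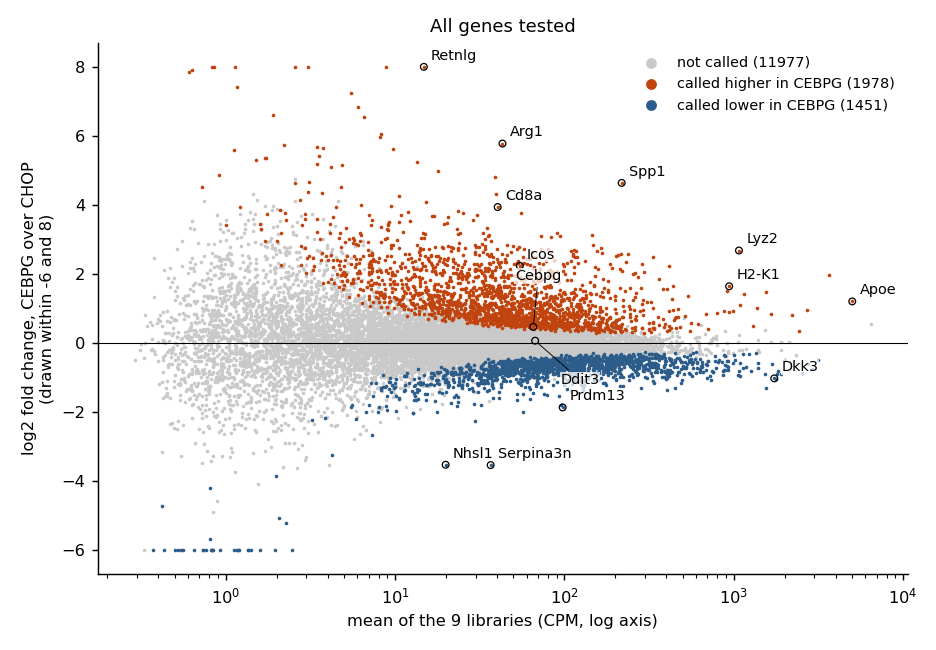
Log2 fold change of CEBPG over CHOP knockout against mean CPM on a log axis, 1 point per gene tested. Values beyond the axis are drawn at its limits, and the fitted value of a gene with 0 reads in a group, such as Retnlg, depends on the prior count. Colours mark the 1978 genes called higher and the 1451 called lower. Retnlg, Arg1 and Spp1 lie towards the upper end, Serpina3n and Nhsl1 far below 0, and Cebpg and Ddit3 close to 0.

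The 2 targeted transcripts did not mark their own knockout. Cebpg (mm10 chromosome 7, 35046422 to 35056573, minus strand) was at 98.5, 50.9, 93.9 and 66.1 CPM in the CEBPG knockouts and 60, 59.3, 58.4, 51.2 and 51.3 CPM in the CHOP knockouts. Of the CEBPG knockouts, 3 lay above the narrow range of the CHOP knockouts and replicate 8 lay just below it. The difference was 0.46 (SE 0.19, adjusted p = 0.0969). Without CEBPG replicate 8 Cebpg was called higher in the CEBPG knockouts (0.58, adjusted p = 0.0186), as it was with 20 libraries of the series in the fit (0.42, adjusted p = 0.0475). That fit still tested CEBPG against CHOP, but its filter, scaling and spread also drew on ATF3 knockouts, ATF4 knockouts of batch 1 and male controls of batch 2. It had no term for batch or sex. Ddit3 was at 71.5, 65.3, 59.3 and 79.3 CPM against 61.8, 67, 73.8, 69.9 and 56.7 CPM, overlapping ranges with no call (0.06, SE 0.14, adjusted p = 0.805). A guide-made mutation need not lower the level of its transcript, so the labels are not tested by these levels, and the groups are named as labelled. In the authors' deposited table, where each knockout has its own comparison, Cebpg has a log fold change of -0.256 (FDR 0.43) in the CEBPG knockout and Ddit3 one of 0.329 (FDR 0.535) in the CHOP knockout.

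The response element bound by ATF4 with C/EBP partners was located in the stress and amino acid genes that follow, because C/EBP gamma is known to act there with ATF4. The letters TGATGNAA were searched on both strands of RefSeq promoter windows (GRCm38.p6, the same assembly as mm10, 250 bases before to 50 after a start site). They occurred in 2.42% of the 14608 windows of genes tested. In the lists they occurred in 5 of 22 windows of stress regulators, 3 of 15 of amino acid synthesis, 2 of 12 of amino acid transporters and 5 of 12 of tRNA synthetases. Genes called higher held it in 3.16% of their windows and genes called lower in 1.59%. A match describes the letters and is not a measured binding site. The examples below cover genes called higher (Atf3, Nupr1), called lower (Vldlr, Got1) and not called (Chac1, Asns, Slc7a11). Each runs 5′ to 3′ on the strand of the gene, lies before its start site and has the element in capitals, as TTGCATCA where the match is on the opposite strand.
Atf3, chr1:191183425-191183454, minus strand: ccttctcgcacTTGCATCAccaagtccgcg
Nupr1, chr7:126625562-126625591, minus strand: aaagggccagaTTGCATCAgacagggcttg
Vldlr, chr19:27216809-27216838, plus strand: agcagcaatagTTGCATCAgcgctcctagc
Got1, chr19:43524689-43524718, minus strand: cattgcattggTTGCATCAtacaagcctcc
Chac1, chr2:119351038-119351067, plus strand: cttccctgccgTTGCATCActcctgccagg
Asns, chr6:7693214-7693243, minus strand: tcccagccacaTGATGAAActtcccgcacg
Slc7a11, chr3:50443642-50443671, minus strand: acctggagaatTTGCATCAtcatgcagccc
Genes with the same 8 letters TTGCATCA, such as Nupr1 and Got1, were called in opposite directions.

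Of 20 stress response regulators, 4 were higher in the CEBPG knockouts (Cebpb, Nupr1, Eif4ebp1 and Atf3), 1 was lower (Vldlr) and 15 were not called, with a list median of 0.39. The called share, 25% of the list, was close to the 22.3% over all genes, and 3 were higher and 1 lower without CEBPG replicates 6 and 8. Nupr1, a small nuclear stress protein, was at 64.1, 36.6, 65 and 57.3 CPM in the CEBPG knockouts and 22.9, 29.8, 29, 24.4 and 19 CPM in the CHOP knockouts (1.16, SE 0.21, adjusted p = 0.00157). Even CEBPG replicate 8, the lowest of its group, lay above every CHOP library. Cebpb, a C/EBP activator, was at 85.4 ± 9.40 CPM (SD, n = 4) against 47.9 ± 10.3 CPM (n = 5), a difference of 0.84 (SE 0.17, adjusted p = 0.00374) with no overlap. Eif4ebp1, an inhibitor of cap-dependent translation, was higher by 1.34 (SE 0.34, adjusted p = 0.012). Vldlr, a lipoprotein receptor, was at 65.1 ± 13.1 CPM against 111 ± 14.3 CPM (-0.77, SE 0.16, adjusted p = 0.00334).

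Atf3, a stress-induced factor that pairs with several bZIP proteins, depended on single libraries. It was at 57.1, 122, 61.8 and 66.6 CPM in the CEBPG knockouts and 33.6, 49.7, 56, 22.5 and 24.1 CPM in the CHOP knockouts (1.05, SE 0.30, adjusted p = 0.025). CEBPG replicate 8 was far above the rest, and the lowest CEBPG library was within 2 CPM of the highest CHOP library. The call was lost without CEBPG replicate 8 (0.71, adjusted p = 0.0987), without CHOP replicate 1 (1.02, adjusted p = 0.0573), without CHOP replicate 4 (0.91, adjusted p = 0.0565) and without CHOP replicate 5 (0.93, adjusted p = 0.0615). Atf4 was at 138, 154, 123 and 121 CPM against 110, 110, 123, 96.6 and 94.3 CPM. The ranges overlapped, as CEBPG replicate 10 lay below CHOP replicate 3. The difference of 0.33 (SE 0.12, adjusted p = 0.0724) was not called. It was called without CHOP replicate 3 (0.39, adjusted p = 0.0492), at equal depth (0.37, adjusted p = 0.04) and with the ATF3 libraries in the fit (0.29, adjusted p = 0.0455). Chac1, a glutathione-degrading enzyme, and Trib3, a pseudokinase, both ATF4 targets, gave 0.40 (SE 0.35) and 0.73 (SE 0.64) with adjusted p = 0.474 and 0.478.

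**Figure D2:**
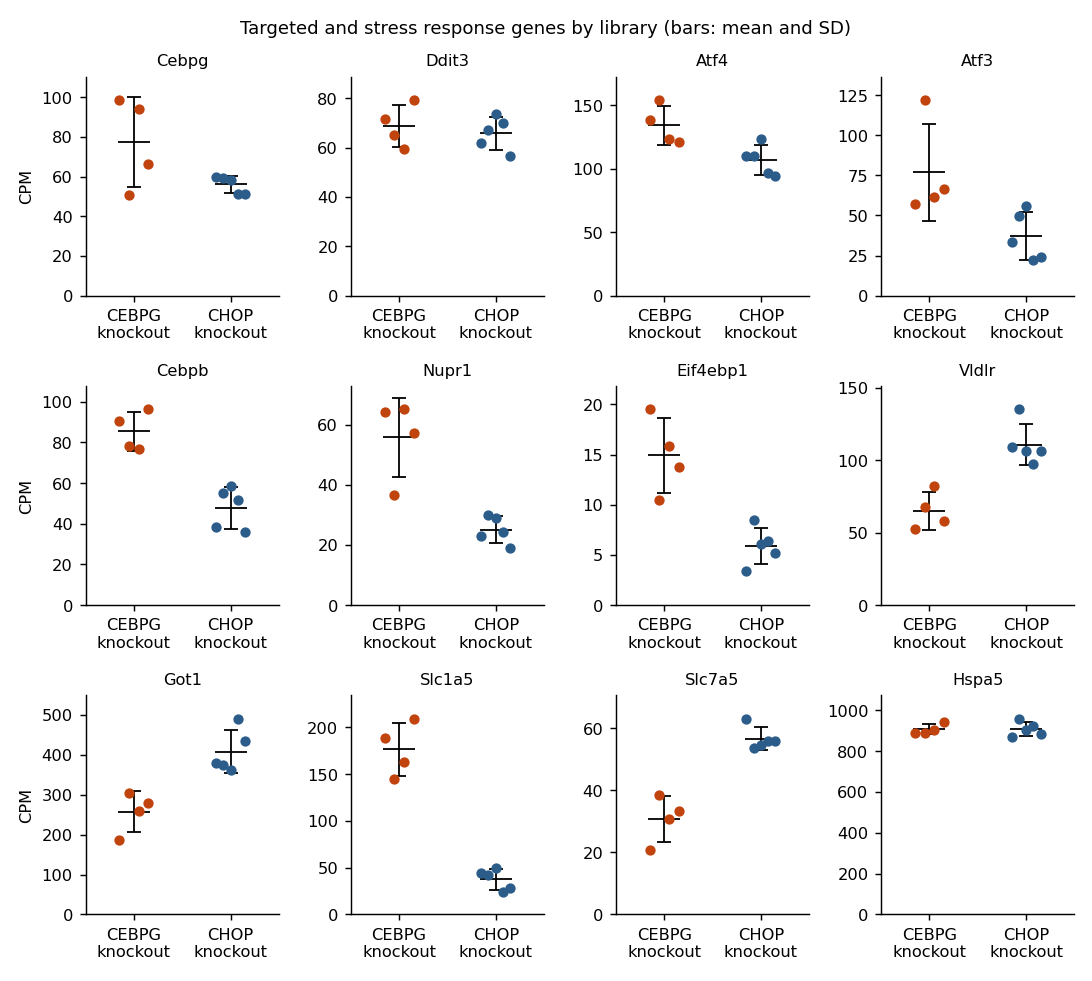
CPM of 12 targeted and stress response genes in each of the 4 CEBPG and 5 CHOP knockout libraries (points), with the mean and SD of each group as bars. Nupr1, Cebpb, Eif4ebp1 and Slc1a5 lie higher in every CEBPG library, Vldlr, Got1 and Slc7a5 lower, and Cebpg, Ddit3 and Hspa5 overlap.

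Of 17 genes of amino acid synthesis tested, 0 were higher and 1 was lower, Got1, the cytosolic aspartate aminotransferase, at 257 ± 50.6 against 408 ± 53.5 CPM (-0.66, SE 0.14, adjusted p = 0.00511). Asns, asparagine synthetase, was at 41.6, 42.8, 78.2 and 64.1 CPM against 68.6, 63.6, 41.4, 83.8 and 61.1 CPM, so that both groups spanned the same range (-0.17, SE 0.23, adjusted p = 0.681). The list median of 0.26 has the opposite sign to the only call. Leaving out CEBPG replicate 6 added 1 higher call and leaving out CEBPG replicate 9 added 1 lower call. Without CEBPG replicates 6 and 8 together there were 1 higher and 1 lower.

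Of 14 amino acid transporters tested, 1 was higher and 3 were lower, a called share of 28.6% beside 22.3% over all genes. Only 2 of the 14 had a positive fold change, and the median was -0.47. Slc1a5, the neutral amino acid and glutamine exchanger, was at 189, 145, 163 and 209 CPM in the CEBPG knockouts and 44.3, 41.6, 49.2, 24.2 and 27.9 CPM in the CHOP knockouts (2.24, SE 0.21, adjusted p = 1.09e-05). Its lowest CEBPG library was far above its highest CHOP library. Slc7a5, the light chain of the large neutral amino acid transporter, was lower by 0.87 (30.9 ± 7.46 against 56.6 ± 3.70 CPM, adjusted p = 0.00408). Slc38a1, a neuronal glutamine transporter, was lower by 0.79 (209 ± 35.4 against 361 ± 31.7 CPM, adjusted p = 0.00063), and Slc6a17, a transporter of synaptic vesicles, by 1.38 (18.4 ± 7.53 against 48 ± 6.29 CPM, adjusted p = 0.00229). Slc7a11, the cystine-glutamate antiporter, gave -1.15 (SE 0.46, adjusted p = 0.0922) and was called lower only in fits with the ATF3 libraries of the batch (-1.19, adjusted p = 0.0288) and with DESeq2 (-1.17, adjusted p = 0.0491). Without CHOP replicate 3, 2 transporters were called higher.

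The tRNA synthetases and the chaperones of the endoplasmic reticulum showed no shared direction. Of 20 synthetases 1 was higher, Dars (170 ± 15.2 against 112 ± 9.11 CPM, 0.60, adjusted p = 0.00149), and 1 was lower, Farsb (-0.49, adjusted p = 0.0182), the latter not called without CHOP replicate 5 (adjusted p = 0.0502) or without CEBPG replicates 6 and 8 (0.102). Without CEBPG replicate 8, 2 synthetases were called higher, and without CHOP replicate 3, 2 were called lower. Their median was 0.04. Of 22 chaperones and their regulators, 4 were higher and 1 was lower, a called share of 22.7% beside 22.3% over all genes, with a median of 0.06, and 3 were lower with upper quartile scaling. Edem1, which directs misfolded glycoproteins to degradation, was higher by 1.35 (SE 0.27, adjusted p = 0.00312), Sdf2l1 by 0.86 (adjusted p = 0.0024) and the disulfide isomerase Pdia3 by 0.54 (adjusted p = 0.0023). The lower call, Sel1l (-0.37, adjusted p = 0.044), was lost without CEBPG replicate 8 or 10 (adjusted p = 0.0564 and 0.0847) and without CHOP replicate 1, 2, 3 or 5 (0.0709, 0.0716, 0.0751 and 0.107). Without CEBPG replicate 6 there were 2 lower calls, and without CEBPG replicates 6 and 8 together there were 3 higher and 2 lower. Hspa5 (BiP), a widely used gauge of endoplasmic reticulum stress, was level at 907 ± 25.3 CPM in the CEBPG and 907 ± 35.1 CPM in the CHOP knockouts. Its difference was smaller than the spread between libraries, and its sign changed with the scaling.

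Lymphocyte and myeloid genes were higher in the CEBPG knockouts. Of 34 tested genes of T and NK lymphocytes, 32 were higher and 0 lower, with a median of 2.42, beside 12.8% higher and a median of 0.015 over all genes. Cd8a, a coreceptor of cytotoxic T cells, was at 64.4, 75.1, 89 and 108 CPM in the CEBPG knockouts and 4.84, 5.44, 7.72, 4.74 and 4.64 CPM in the CHOP knockouts (3.94, SE 0.22, adjusted p = 6.16e-07). Every CEBPG library was several times above every CHOP library. The T cell receptor chains Cd3d, Cd3e and Cd3g were higher by 2.48, 2.12 and 2.17 (adjusted p = 1.49e-06, 5.55e-05 and 1.82e-06), and the proximal kinases Lck and Zap70 by 2.59 and 2.15 (adjusted p = 1.3e-06 and 3.05e-05). The costimulatory receptor Icos was at 97.1 ± 5.60 against 20.6 ± 1.75 CPM (2.23, SE 0.14, adjusted p = 6.16e-07). Klrk1, an activating receptor of NK and cytotoxic T cells, gave 4.31 (SE 0.28, adjusted p = 1.13e-06). The 5 defining markers of this list were all higher, and 31 of its genes were higher without CEBPG replicates 6 and 8. The counts of the gamma delta and of the monocyte list given next were the same without that pair.

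Genes of gamma delta and interleukin 17 producing T cells were higher in 9 of 15 cases and lower in 0, with a median of 1.92. Il17a, the effector cytokine of these cells, was at 19.2, 26.9, 15.8 and 23.1 CPM in the CEBPG knockouts and at 1.47, 0, 0.857, 0 and 0 CPM in the CHOP knockouts (5.61, SE 1.07, adjusted p = 0.00232). It was listed at 0 in 3 of 5 CHOP libraries and in no CEBPG library. Cd163l1, a scavenger receptor of gamma delta T cells, was higher by 3.76 (SE 0.43, adjusted p = 5.55e-05) and the chemokine receptor Cxcr6 by 2.50 (615 ± 116 against 109 ± 29.7 CPM, adjusted p = 2.43e-06). The interleukin 18 receptor Il18r1 was at 40.9 ± 8.98 against 5.95 ± 2.47 CPM (2.78, adjusted p = 7.37e-05). Of 7 B cell genes tested, 1 was higher and 1 lower, a called share of 28.6% beside 22.3% over all genes. Without CEBPG replicate 8, 9 or 10 or CHOP replicate 4, 2 were higher. Of the 7, 5 had a positive fold change, with a median of 0.98 that ran from -0.40 to 1.07 over the alternatives. Their summed share was 0.0103% ± 0.000804 (n = 4) against 0.0109% ± 0.00140 (n = 5). The list shares 1 gene with the amacrine list below. Its defining markers, none of them called, took 0.00164% against 0.00102%, with overlapping ranges.

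Monocyte and neutrophil genes were higher in 13 of 14 cases, with a median of 3.51. Retnlg, a resistin-like protein of neutrophils, was at 30.7, 57, 16 and 29.5 CPM in the CEBPG knockouts and had 0 reads in the CHOP knockouts, at least 1259-fold higher when the CHOP libraries together are given the 3 reads that a count of 0 allows. Alox15, a lipoxygenase of macrophages and eosinophils, and S100a8, a calcium-binding protein of neutrophils, also had 0 reads in the CHOP knockouts and were at least 756-fold and 217-fold higher by the same floor. With Retnlg and S100a8 at these bounds, both still lie above the list's median. Such floors cover counting error only. Ly6c2, a monocyte surface protein, was at 38.6 ± 18.1 against 1.25 ± 0.904 CPM (4.97, SE 0.53, adjusted p = 3.43e-05), and the monocyte chemokine receptor Ccr2 at 164 ± 19.1 against 19.7 ± 10.5 CPM (3.07, adjusted p = 2.23e-05). Lyz2, lysozyme of myeloid cells, was at 2277, 1754, 1841 and 2214 CPM against 332, 436, 323, 247 and 242 CPM (2.68, SE 0.17, adjusted p = 9.42e-07). The highest CHOP library was far below the lowest CEBPG library.

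Expressed as a share of all counted reads, the T and NK list took 0.331%, 0.344%, 0.376% and 0.439% in the CEBPG knockouts and 0.0792%, 0.0813%, 0.0853%, 0.0612% and 0.0584% in the CHOP knockouts, a ratio of means of 5.10. The CHOP range lay beside that of the ATF3 knockouts of the same batch, 0.0580% to 0.0656%. The monocyte and neutrophil list took 0.298% ± 0.0261 against 0.0810% ± 0.0111, with 0.135% to 0.156% in the ATF3 knockouts, and the gamma delta list 0.110% ± 0.0131 against 0.0208% ± 0.00302, with 0.0365% to 0.0460%. Shares are not scaled for gene length, so different lists cannot be ranked by them. What part these cells take in the other differences reported here was not tested.

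**Figure D3:**
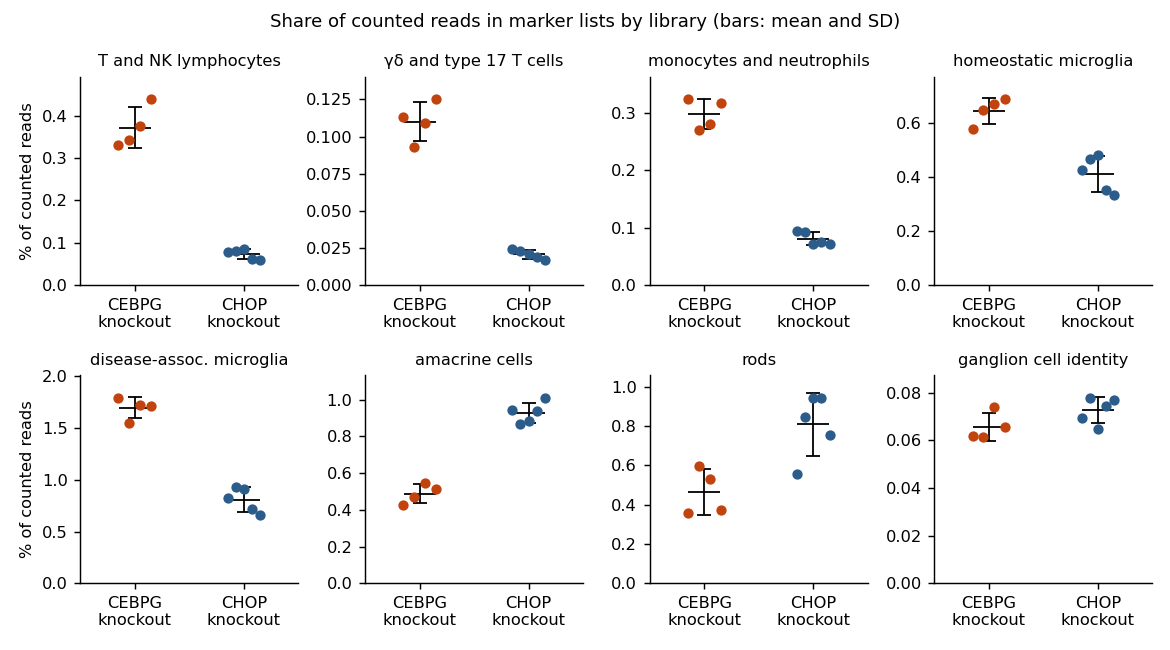
Share of counted reads, in percent, taken by 8 lists of cell type markers in each of the 4 CEBPG and 5 CHOP knockout libraries (points), with the mean and SD as bars. The lymphocyte, myeloid and microglial lists lie higher in all CEBPG libraries, the amacrine list lower, and the rod and ganglion cell lists overlap.

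Most microglial genes tested were higher. Of 16 genes of homeostatic microglia, the resident immune cells of the retina, 11 were higher and 0 lower, with a median of 0.65, and 10 were higher without CEBPG replicates 6 and 8. Of the 4 defining members Siglech, a surface lectin, was higher (110 ± 24.6 against 70.4 ± 16.2 CPM, 0.65, adjusted p = 0.0342), with 1 CEBPG library inside the CHOP range. That call did not hold without CEBPG replicate 8 or 10, without CHOP replicate 1, 4 or 5, or with upper quartile scaling. P2ry12 (151 ± 26.7 against 123 ± 19.2 CPM, adjusted p = 0.188), Tmem119 (243 ± 42.5 against 217 ± 27.4 CPM, adjusted p = 0.436) and Sall1 (adjusted p = 0.617) were not called. Of 20 genes of the disease-associated state, 18 were higher and 1 was lower, with a median of 1.05, and 15 were higher without CEBPG replicates 6 and 8. The homeostatic list took 0.579% to 0.688% of counted reads against 0.335% to 0.482%, and the disease-associated list 1.55% to 1.79% against 0.66% to 0.927%. In the ATF3 knockouts these lists took 0.492% to 0.548% and 1.32% to 1.66%. The disease-associated list holds the abundant Apoe. Its 4 defining markers took 0.0437% to 0.0597% in the CEBPG, 0.0201% to 0.0259% in the CHOP and 0.018% to 0.0211% in the ATF3 knockouts. Whether the lists differ from each other was not tested. Clec7a, a beta-glucan receptor, was at 237, 198, 195 and 172 CPM against 42.8, 49.6, 33.1, 28.9 and 37 CPM (2.39, SE 0.17, adjusted p = 1.64e-06), with no overlap. The lectin Lgals3 was higher by 3.10 (adjusted p = 2.23e-06), the cystatin Cst7 by 1.90 (adjusted p = 9.18e-06) and the integrin Itgax by 2.00 (adjusted p = 0.000544). Apoe, which Müller glia also express, was at 7312 ± 672 against 3178 ± 655 CPM (1.20, adjusted p = 6.65e-05). The ATF3 knockouts had 7266 to 9413 CPM, scaled only by their own total reads and so not on quite the same scale. The exception was Igf1, a growth factor of microglia and some neurons, lower at 86.8 ± 11.4 against 142 ± 31.3 CPM (-0.71, SE 0.17, adjusted p = 0.00792).

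Of 7 genes of perivascular macrophages, 5 were higher and 1 was lower. Mrc1, the mannose receptor, was at 16.9 ± 1.49 against 2.12 ± 2.52 CPM (3.00, adjusted p = 0.0268), with no overlap. Its call did not hold without CEBPG replicate 9 or 10 or CHOP replicate 1, 3 or 5, where adjusted p lay between 0.0511 and 0.0663. Lyve1, a hyaluronan receptor, was lower (5.51 ± 1.91 against 12.1 ± 4.25 CPM, -1.13, adjusted p = 0.0478). The call of Lyve1 did not hold in 6 of the 9 fits that left out 1 library (CEBPG replicates 6, 9 and 10, CHOP replicates 2, 3 and 4). Arg1, arginase, which macrophages make, was at 99.3, 69.9, 97.4 and 113 CPM in the CEBPG knockouts and 2.74, 0, 1.54, 2.94 and 1.77 CPM in the CHOP knockouts (5.78, SE 0.62, adjusted p = 3.52e-05). Spp1, osteopontin, was at 582, 351, 621 and 316 CPM against 10.6, 28.9, 8.27, 9.93 and 35.4 CPM (4.64, SE 0.44, adjusted p = 1.35e-05). Both stood apart in every library. Both are also listed among axon regeneration genes, and Spp1 among markers of alpha ganglion cells, so that these lists overlap in what they count. Of 20 cell cycle genes 6 were higher (30%, beside 12.8% higher over all genes) and 0 lower, with a median of 1.53. Top2a, the topoisomerase of dividing cells, was at 35.4, 24.3, 16.4 and 23.3 CPM against 3.79, 0.827, 2.87, 1.45 and 1.97 CPM (3.52, SE 0.43, adjusted p = 9.59e-05). CEBPG replicate 6 was the highest, as it was for Mki67 (43.3 CPM, the other 3 between 9.62 and 11.7). The cell cycle count was 3 without CHOP replicate 1, 4 without CEBPG replicates 6 and 8, and 10 with DESeq2.

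Antigen presentation genes were higher as a group. All 8 tested genes of MHC class II and 12 of 13 of class I were higher, with medians of 1.61 and 1.40, and the same 8 and 12 in number were called with each library left out in turn. H2-K1, a class I heavy chain whose reads a close relative could share, was at 1420, 1450, 1557 and 1614 CPM against 495, 514, 549, 437 and 426 CPM (1.64, SE 0.10, adjusted p = 6.16e-07). Its regulator Nlrc5 was higher by 1.87 (adjusted p = 3.62e-05) and the immunoproteasome subunit Psmb9 by 1.80 (adjusted p = 3.74e-06). The class II chains H2-Aa and H2-Ab1 and the invariant chain Cd74 were higher by 1.80, 1.84 and 1.51 (adjusted p = 6.16e-06, 1.02e-05 and 7.01e-05). The class II list took 0.499% ± 0.0336 of counted reads against 0.214% ± 0.0490, and the ATF3 knockouts 0.249% to 0.284%.

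Many signalling genes of inflammation were higher too. Of 18 genes of the NF-kB pathway and its feedback 16 were higher, of 30 interferon response genes 18, of 17 complement genes 13, of 27 chemokines and receptors 19 and of 34 interleukins, TNF members and receptors 20. Without CEBPG replicates 6 and 8 these counts were 11, 15, 12, 14 and 20. Irf1, an interferon-induced factor, was at 175 ± 21.5 against 64.8 ± 4.93 CPM (1.43, adjusted p = 4.89e-06), and the feedback inhibitor Socs1 at 42.4 ± 11.2 against 9.93 ± 1.36 CPM (2.09, adjusted p = 3.78e-05). Complement C3 was at 131, 126, 118 and 128 CPM against 21.8, 18.1, 28.9, 22.7 and 20.2 CPM (2.50, SE 0.15, adjusted p = 6.16e-07), narrow and separate ranges. C1qb, a chain of the complement initiator C1q, was higher by 0.94 (adjusted p = 0.000518), the T cell chemokine Ccl5 by 2.33 (adjusted p = 3.05e-05) and the interferon-induced factor Irf7 by 1.24 (adjusted p = 0.000215). The signalling adaptors Traf1 and Birc3 were higher by 2.36 and 2.30 (adjusted p = 8.61e-05 and 9.69e-06), and lymphotoxin Ltb and the common cytokine receptor chain Il2rg by 2.50 and 2.20 (both adjusted p = 4.89e-06).

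The lower member of these lists was Cx3cl1, the neuronal chemokine whose receptor sits on microglia. It was at 153, 179, 268 and 270 CPM in the CEBPG knockouts and 445, 418, 441, 393 and 403 CPM in the CHOP knockouts (-0.95, SE 0.16, adjusted p = 0.000957). A second chemokine gene was also called lower without CEBPG replicate 6 or CHOP replicate 5. Serpina3n, a secreted protease inhibitor of reactive glia, was the most reduced of the acute phase genes, in which 5 of 12 were higher and 1 lower. It was at 1.94, 1.16, 8.81 and 8.65 CPM against 70.5, 66.2, 61.4, 55.7 and 55.8 CPM (-3.54, SE 0.50, adjusted p = 0.000256). In the same list Saa3, an acute phase apolipoprotein, was higher by 2.79 (36.3 ± 10 against 5.20 ± 3.46 CPM, adjusted p = 0.000573). Both belong to families of similar genes.

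**Figure D4:**
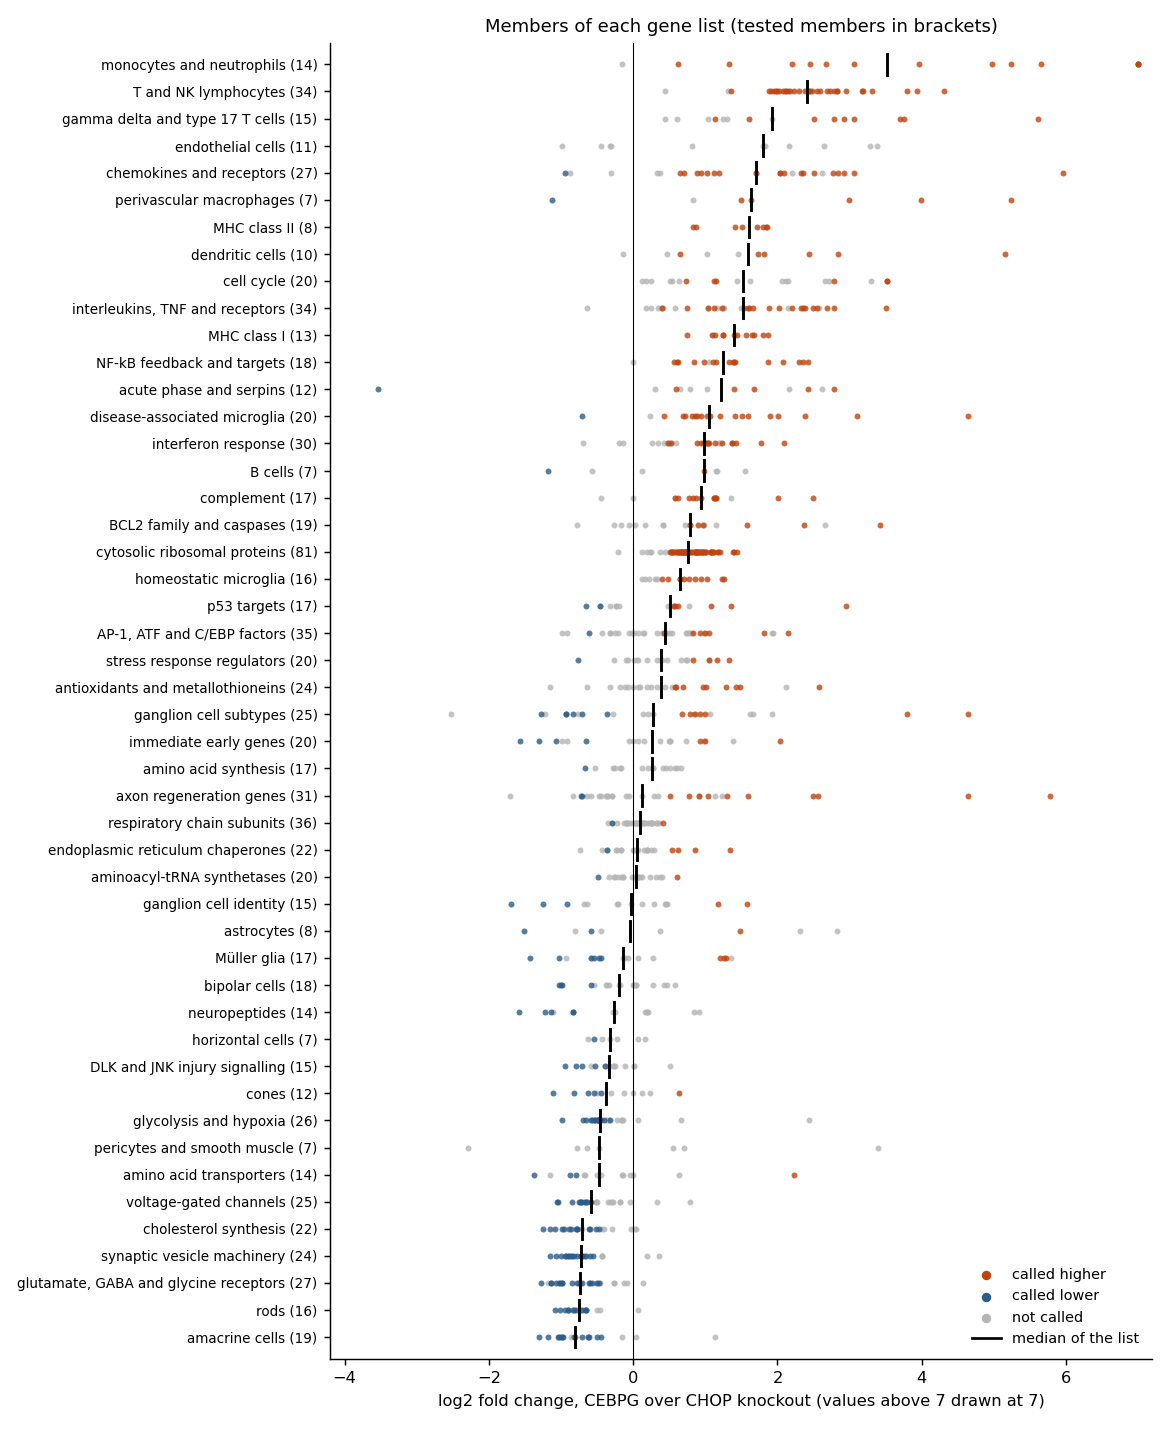
Log2 fold change of every tested member (points) of each gene list with at least 7 tested members, ordered by the list's median (black line); values above 7 are drawn at 7. Monocyte, lymphocyte and MHC lists lie to the right of 0, and amacrine, rod, receptor, synaptic vesicle and cholesterol lists to the left.

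Of 19 genes of the BCL2 family and caspases, 6 were higher (5 without CEBPG replicates 6 and 8), 0 were lower and 13 were not called, with a median of 0.79, beside 12.8% higher over all genes. The pore former Bax was at 158, 169, 150 and 151 CPM against 82.6, 96.9, 114, 90.9 and 71 CPM (0.79, SE 0.14, adjusted p = 0.00115). The survival factors Bcl2 and Mcl1 were higher by 1.58 and 0.97 (adjusted p = 7.03e-05 and 7.37e-05). Of 17 p53 targets, 6 were higher and 2 were lower, a called share of 47.1% beside 22.3% over all genes. The lower count was 1 without CHOP replicate 1, and without CEBPG replicates 6 and 8 there were 5 higher and 1 lower. The cell cycle inhibitor Cdkn1a was at 34.7 ± 3.61 against 16.5 ± 3.18 CPM (1.08, adjusted p = 0.00221) and the kinase Plk3 was higher by 1.35 (adjusted p = 0.000244), while its relative Plk2 was lower by 0.65 (adjusted p = 0.00126). The lymphocyte and myeloid shares given above were higher in the same libraries, and lymphocytes and myeloid cells also express Bcl2, Mcl1 and Bax. What part those cells take in the calls of this paragraph was not tested.

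Of 24 antioxidant, metallothionein and iron-handling genes 9 were higher and 0 lower, with a median of 0.39, and 10 were higher without CEBPG replicates 6 and 8. Those not called included the metallothioneins Mt1, Mt2 and Mt3 and the enzymes Nqo1, Gclm, Txnrd1 and Srxn1. Hmox1, heme oxygenase, was at 59.9, 68.1, 73.5 and 72.3 CPM against 11.2, 9.22, 11.3, 13.8 and 12.2 CPM (2.57, SE 0.17, adjusted p = 1.3e-06), far apart in every library. The ferritin chains Ftl1 and Fth1 were higher by 1.49 and 1.01 (adjusted p = 7.18e-06 and 6.21e-05), with Ftl1 having processed copies that could share reads. The peroxide-reducing enzymes Gpx1 and Prdx1 were higher by 1.29 and 0.97 (adjusted p = 1.93e-05 and 2.02e-05). Of 31 axon regeneration genes 10 were higher and 2 lower, a called share of 38.7% beside 22.3% over all genes, with a median of 0.12. Besides Arg1 and Spp1, the galectin Lgals1 and the membrane-binding annexin Anxa2 were higher by 2.49 and 2.56 (adjusted p = 1.64e-06 and 2.02e-05), both also made by macrophages. Klf9, which restrains axon growth, was lower at 115 ± 18 against 190 ± 30.6 CPM (-0.73, adjusted p = 0.00345). The lower count of the regeneration list was 4 without CEBPG replicate 8, 3 without CEBPG replicates 6 and 8, 6 with upper quartile scaling and 8 with the 14 libraries of the batch in the fit. Without CEBPG replicate 8, 1 antioxidant gene was called lower, and with the 14 libraries 3 were.

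Amacrine cell genes were lower in the CEBPG knockouts. Of 19 amacrine cell genes, from the inhibitory interneurons next to the ganglion cells, 14 were lower and 0 higher, with a median of -0.80, beside 9.42% lower over all genes, and 13 were lower without CEBPG replicates 6 and 8. Their 5 defining markers were all lower. Gad1, the enzyme that makes GABA, was at 699, 687, 777 and 861 CPM in the CEBPG knockouts and 1463, 1302, 1190, 1236 and 1410 CPM in the CHOP knockouts (-0.80, SE 0.10, adjusted p = 0.000114), with no overlap. The glycine transporter Slc6a9 was at 847 ± 208 against 2103 ± 227 CPM (-1.31, SE 0.16, adjusted p = 8.2e-05), with separate ranges. The second GABA-making enzyme Gad2, the vesicular transporter Slc32a1 and the factor Tfap2b were lower by 0.71, 0.99 and 0.82 (adjusted p = 0.00161, 0.0093 and 0.000334). Prdm13, a transcription factor that specifies amacrine cells, was at 31, 33.7, 50.9 and 42 CPM against 131, 139, 127, 147 and 178 CPM (-1.87, SE 0.17, adjusted p = 9.69e-06). The amacrine list took 0.488% ± 0.0516 of counted reads against 0.927% ± 0.0549, and 0.734% to 0.755% in the ATF3 knockouts.

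Many genes of the synapse that neurons share were lower too. Of 24 genes of synaptic vesicles 18 were lower, of 27 receptors for glutamate, GABA and glycine 17 and of 25 voltage-gated channels 11, with 0 higher in each and medians of -0.72, -0.74 and -0.58. Without CEBPG replicates 6 and 8 these counts were 18, 18 and 10. Syt1, the calcium sensor of release, was at 904, 1316, 1400 and 1261 CPM against 2319, 2063, 2057, 2245 and 2680 CPM (-0.90, SE 0.13, adjusted p = 0.000351). CEBPG replicate 6 was the lowest, and no CEBPG library reached a CHOP library. The vesicle proteins Sv2a and Syp and the SNARE protein Snap25 were lower by 1.07, 0.93 and 0.61 (adjusted p = 0.000375, 9.56e-05 and 0.000326). The glutamate receptor subunit Grin1 was lower by 1.02 (adjusted p = 0.00103) and the calcium channel subunit Cacna2d3 by 0.85 (adjusted p = 0.00304). The synaptic vesicle list took 0.689% to 0.945% of counted reads in the CEBPG, 1.38% to 1.54% in the CHOP and 1.35% to 1.39% in the ATF3 knockouts.

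Ganglion cell genes did not move as 1 group. Of 15 identity genes 2 were higher and 3 were lower, with a median of -0.03. The called share was 33.3%, beside 22.3% over all genes. Rbpms, an RNA-binding protein found in all ganglion cells, was at 45.1, 21.3, 36 and 19.9 CPM against 14.1, 15.6, 10.2, 11.9 and 15.8 CPM (1.18, SE 0.28, adjusted p = 0.00852). Gamma synuclein, Sncg, was at 27.2 ± 5.53 against 9.12 ± 1.95 CPM (1.58, SE 0.25, adjusted p = 0.000551). Both were higher in every CEBPG library. By contrast the vesicular glutamate transporter Slc17a6 was at 14, 4.88, 16.5 and 20.7 CPM against 27.6, 39.4, 32.1, 31.4 and 36.3 CPM (-1.25, SE 0.33, adjusted p = 0.0166). Ebf3, a factor of ganglion and amacrine cells, was lower by 1.70 (adjusted p = 0.00504) and the neurofilament Nefm by 0.92 (adjusted p = 0.0067). Pou4f1 gave 0.46 (SE 0.59, adjusted p = 0.656). The identity list took 0.0613% to 0.0740% of counted reads against 0.0647% to 0.0778%, overlapping ranges. Of 25 subtype genes 7 were higher and 6 lower, and without CEBPG replicates 6 and 8 there were 4 higher and 7 lower. The higher ones included Spp1 and Eomes (3.80, SE 0.39, adjusted p = 2.25e-05), which macrophages and cytotoxic lymphocytes also express.

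Rod genes were lower, with wide spread. Of 16 tested 12 were lower (11 without CEBPG replicates 6 and 8) and 0 higher, with a median of -0.76. The rod list took 0.36% to 0.595% of counted reads against 0.556% to 0.944%, overlapping ranges, and 0.443% to 0.469% in the ATF3 knockouts. Gnat1, rod transducin, was at 695, 1392, 1247 and 774 CPM against 1314, 2074, 2097, 2248 and 1914 CPM (-0.91, SE 0.21, adjusted p = 0.00769). CHOP replicate 1 lay just below CEBPG replicate 8, so the groups overlapped. Arrestin, Sag, overlapped in the same way (-0.82, adjusted p = 0.00523). The rod factor Nrl was lower by 0.94 (adjusted p = 0.0127). Cone genes were mixed: of 12 tested 5 were lower, 1 was higher and 6 were not called, with overlapping shares of 0.142% to 0.228% against 0.213% to 0.258%. The lower count was 3 without CHOP replicate 2 or 3. The higher one, the transducin subunit Gngt2 (0.63, adjusted p = 0.025), was not called without CEBPG replicate 8 or CHOP replicate 1, 4 or 5. The short-wave opsin Opn1sw did not overlap, at 518 ± 76 against 919 ± 86 CPM (-0.83, adjusted p = 0.000241). Of 18 bipolar cell genes 4 were lower, a called share of 22.2% beside 22.3% over all genes, and none of the 4 defining markers was called. Of 17 genes of Müller glia 3 were higher and 6 lower, and without CHOP replicate 4 the lower count was 3. Their list, which holds the abundant Apoe, took 0.847% to 1.07% of counted reads against 0.598% to 0.743%. Its 4 defining markers went the other way, at 0.0413% to 0.0629% against 0.0647% to 0.0775%, and 3 of them were called lower and 0 higher. Glul, glutamine synthetase, was at 140 ± 20.3 against 203 ± 30.9 CPM (-0.54, adjusted p = 0.0144), a call lost without CEBPG replicates 6 and 8 (-0.38, adjusted p = 0.0944). Dkk3, a secreted Wnt modulator of Müller glia and neurons, was at 1101 ± 91.7 against 2245 ± 149 CPM (-1.03, SE 0.09, adjusted p = 7.75e-06). Endothelial markers took 0.0135% to 0.026% of counted reads against 0.0204% to 0.0259%, overlapping ranges.

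Of 20 immediate early genes 3 were higher and 4 lower, a called share of 35% beside 22.3% over all genes. Without CHOP replicate 3 there were 6 higher, and without CEBPG replicates 6 and 8 together there were 3 higher and 3 lower. The AP-1 subunit Junb was at 1331, 1300, 1013 and 1140 CPM against 580, 794, 880, 465 and 420 CPM (0.93, SE 0.20, adjusted p = 0.00451). Egr1 and the orphan receptor Nr4a1, both induced by neuronal activity, were lower by 0.65 and 1.07 (adjusted p = 0.00802 and 0.000623). Of 35 AP-1, ATF and C/EBP factors 7 were higher and 1 lower, a called share of 22.9% that is near the 22.3% over all genes. Without CHOP replicate 1 or CHOP replicate 5 there were 4 higher, and without CEBPG replicate 8 there were 2 lower. Of 14 genes tested in the neuropeptide and neurotrophin list 5 were lower and 0 higher. The 14 include 1 uncalled gene that is neither. Bdnf, a neurotrophin, was at 16.2, 9.18, 9.87 and 13 CPM against 24.3, 25.1, 32.5, 28.2 and 30.1 CPM (-1.22, SE 0.24, adjusted p = 0.00236). The secreted peptide precursor Vgf was lower by 1.58 (adjusted p = 0.00188) and Cartpt by 0.83 (adjusted p = 0.00507). Of 15 genes of the DLK and JNK injury pathway 5 were lower (8 with 20 libraries in the fit) and 0 higher, among them the neuronal kinase Mapk10 (-0.71, adjusted p = 0.00448) and its scaffold Mapk8ip2 (-0.80, adjusted p = 0.00478).

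Of 22 genes of cholesterol synthesis and uptake 14 were lower and 0 higher, with a median of -0.71, and 10 were lower without CEBPG replicates 6 and 8. Hmgcs1, an early enzyme of the pathway, was at 107, 104, 128 and 165 CPM in the CEBPG knockouts and 293, 329, 236, 333 and 311 CPM in the CHOP knockouts (-1.25, SE 0.15, adjusted p = 9.56e-05). Msmo1, a later enzyme, was lower by 0.96 (adjusted p = 0.000639). The sterol-sensing genes moved with them: the factor Srebf2 was at 140 ± 9.39 against 241 ± 9.84 CPM (-0.78, adjusted p = 7.81e-05) and the retention protein Insig1 at 59.4 ± 13.4 against 132 ± 7.04 CPM (-1.15, adjusted p = 0.000152). The list took 0.109% to 0.128% of counted reads in the CEBPG and 0.190% to 0.213% in the CHOP knockouts. The ATF3 knockouts lay at 0.117% to 0.121%, within the CEBPG range.

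Of 26 glycolysis and hypoxia genes 15 were lower and 0 higher, with a median of -0.46, and 14 were lower without CEBPG replicates 6 and 8. The neuronal enolase Eno2 was at 397, 507, 544 and 489 CPM against 790, 737, 767, 800 and 828 CPM (-0.70, SE 0.10, adjusted p = 0.000342). The neuronal glucose transporter Slc2a3 was lower by 0.98, phosphofructokinase Pfkm by 0.66 and Gpi1 by 0.53 (adjusted p = 0.00144, 0.000532 and 0.00403). Of 36 respiratory chain subunits 1 was higher and 1 lower, with a median of 0.09, and in 7 of the 9 fits that left out 1 library none was called higher, and in 7 none was called lower. Of 81 cytosolic ribosomal protein genes 69 were higher (58 without CEBPG replicates 6 and 8) and 0 lower, with a median of 0.75. Rps19 was at 163, 206, 168 and 176 CPM against 61.5, 70.8, 79.9, 70.5 and 56.7 CPM (1.39, SE 0.13, adjusted p = 1.02e-05), and Rpl13 and Rps18 were higher by 1.08 and 1.18 (adjusted p = 2.86e-05 and 4.32e-05). Ribosomal proteins have many processed copies that could share their reads. Their list took 0.747% to 0.922% of counted reads against 0.397% to 0.514%, and 0.534% to 0.625% in the ATF3 knockouts.

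Outside the lists, genes lower in the CEBPG knockouts by a wide margin included Nhsl1, an actin regulator family member, and Necab3, a neuronal calcium-binding protein. Nhsl1 was at 5.62, 0, 3.1 and 3.16 CPM in the CEBPG knockouts and 25.7, 28.8, 30.5, 49.3 and 33.2 CPM in the CHOP knockouts (-3.53, SE 0.70, adjusted p = 0.00301). CEBPG replicate 8 had no read, and the ranges were far apart. Necab3 was at 21.2 ± 8.49 against 85.4 ± 5.64 CPM (4.02-fold lower by group means, adjusted p = 9.66e-05).

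**Figure D5:**
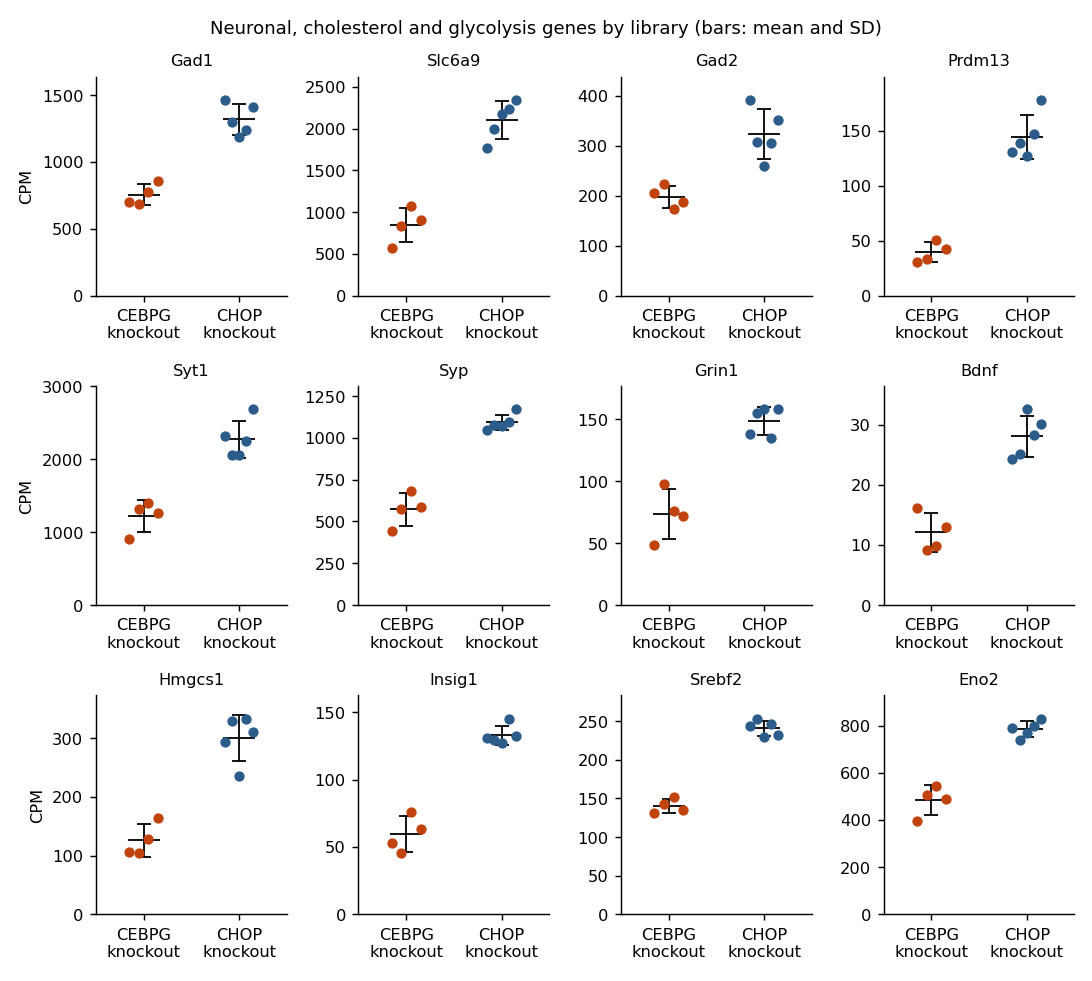
CPM of 12 genes of amacrine cells, synapses and receptors, the neurotrophin Bdnf, cholesterol synthesis and glycolysis in each of the 4 CEBPG and 5 CHOP knockout libraries (points), with the mean and SD of each group as bars. In all 12 panels every CEBPG library lies below every CHOP library.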

How the data were processed

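The deposited table holds raw read counts per gene, whole numbers that the authors made with HTSeq after STAR alignment to mm10, with Picard and edgeR also named and no versions, per the submitters' processing notes. The annotation and strand settings were not given in the sources used here, so overlapping and antisense genes cannot be told apart. Libraries were made from sorted cells with a SMART-Seq kit, per the labels' protocols. The authors' deposited comparison table gives a log fold change, taken here as log2 although its base, reference and model were not given in the sources used here, and FDR-adjusted p-values. The authors' sample sheet gives sex, age, batch, aligned read counts and the fraction of duplicate pairs per library. A further 36 value columns of it, and 1 count column of a library with contradictory labels, were not used.

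The 9 libraries were fitted alone in R 4.3.3 with edgeR 4.0.16 (filterByExpr with a minimum count of 10, TMM, glmQLFit with robust estimation, glmQLFTest, leaving 7 residual degrees of freedom, with a coefficient of biological variation of 0.43). P-values were Benjamini-Hochberg adjusted over 15406 genes, and the adjusted p printed for a gene is edgeR's except where a sentence names DESeq2. The SE of a fold change was taken from its F statistic. CPM are counts over TMM-scaled library sizes, except in the ATF3 knockouts, where they are counts over the library's own total. No library was a copy of another: chi-square per gene within a group was 20.4 to 64.6. The fitting script was first tested on simulated data, where the share of false calls lay above the nominal threshold and smaller changes were recovered less often than larger ones. Coordinates are from GENCODE for mm10.

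The comparison, the 50 gene lists (945 of 972 genes matched) and the tests were chosen with earlier results of these data known, so a list's direction is not independent evidence. The rule for naming genes took the targeted genes, all members of the stress, amino acid and chaperone lists, defining markers, as many as 5 called members a direction from every list, and, by direction, the 10 genes of smallest adjusted p and the 15 of largest change (mean 5 CPM or more, groups apart). The text gives a selection of these, made after their values were seen. The 21 alternatives were DESeq2 1.42.0, limma 3.58.1 voom, other scalings and filters, equal depth, duplicate fraction as covariate, fits with more libraries, and fits leaving out libraries. The fits with more libraries had no term for batch or sex. Some genes are not reported here.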

Additional observations from a re-analysis of the deposited data

Results flagged for a closer look

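Of 377 groups of values checked for 1 library far from the rest of its group (genes named in the text and shares of the lists), 17 stood out, or 4.51%, and chance gives about 1 in 20. In CEBPG replicate 8, Atf3 was at 122 CPM (57.1 to 66.6 in the other 3), Zap70 at 30 CPM (57.3 to 62.4), Lyve1 at 8.37 CPM (4.32 to 4.72) and the bipolar cell list at 0.176% of counted reads (0.0964% to 0.103%). In CEBPG replicate 6, Mki67 was at 43.3 CPM (9.62 to 11.7) and Birc3 at 65.3 CPM (54.3 to 56.1). In CEBPG replicate 9, Chac1 was at 14.5 CPM (7.49 to 8.53) and Sncg at 35.5 CPM (24.2 to 24.7).

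Among the CHOP knockouts, replicate 1 was high for Chac1 (11.1 CPM against 5.96 to 6.69) and Slc7a5 (63 CPM against 53.6 to 56). Replicate 3 was high for Cd8a (7.72 CPM against 4.64 to 5.44), Lgals3 (36.2 CPM against 16.4 to 21.1), Pf4 (1.54 CPM against 0.477 to 0.772) and Egr1 (1239 CPM against 1007 to 1050). Replicate 4 was low for Csf3r (29.3 CPM against 47 to 53.9) and high for Insig1 (145 CPM against 127 to 132), and replicate 5 was low for Klrk1 (1.89 CPM against 4.64 to 4.96). The calls of Zap70, Birc3, Sncg, Cd8a, Lgals3, Csf3r, Klrk1 and Insig1 held in all 21 alternatives.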

How the results depend on the processing

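The count of called genes lay between 2733 (without CHOP replicate 5) and 4755 over the 21 alternatives, against 3429. The count of genes lower in the CEBPG knockouts, 1451, was 2345 with the 14 libraries of the batch in the fit and 2214 with 20 libraries, and in these 3424 and 3349 of the original calls held their direction. Without CEBPG replicates 6 and 8, 2489 of them held. Of 128 called genes named in the text, 120 were called in the same direction in every alternative; the exceptions were Atf3, Glul, Farsb, Sel1l, Siglech, Gngt2, Lyve1 and Mrc1. DESeq2 gave 4139 calls, voom 3806 and counts thinned to 9000250 reads, the depth of the shallowest library, 3447. Values that changed sign were all uncalled: Ddit3 without CEBPG replicate 10 (-0.056, up to 0.109 without CHOP replicate 3), Asns without CEBPG replicates 6 and 8 (0.144), and Hspa5 (0.003 with a filter of at least 1 CPM in 4 libraries, 0.006 at equal depth, 0.011 without CEBPG replicates 6 and 8, 0.004 with scaling outside the immune lists, and 0.006 and 0.020 without CHOP replicates 4 and 2, down to -0.063 without CEBPG replicate 10). The cause was not tested. No paired analysis was possible because no label pairs a CEBPG library with a CHOP library.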
